A study of Schizosaccharomyces pombe with 2 samples.

Results

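The introns described here lie in genes for the proteins of the cytosolic ribosome of fission yeast (*Schizosaccharomyces pombe*). They were taken by gene name from the authors' table of reads over annotated introns. Names that begin with rpl or rps and a digit mark large and small subunit proteins, and names that begin with rpp10 or rpp20 mark the acidic stalk proteins P1 and P2. The genes rpp1 and rpp40 encode parts of the RNA-processing enzyme RNase P and were left out. This gave 46 introns of 44 genes among 1292 distinct annotated introns: 21 of large subunit genes, 20 of small subunit genes and 5 of stalk genes. The cells were strain 972 h- with dbr1 deleted, and no strain that keeps dbr1 was analysed here. Cultures of 41 conditions gave the RNA, which was combined before circular RNA was cut from a 2-dimensional acrylamide gel. The gel run called short used 7.5% acrylamide in the first dimension and 15% in the second, and only the tables' own name ties them to that run. All values below therefore come from 1 library, with no replicate, no comparison of conditions and no p-value.

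An intron leaves its transcript as a lariat, a loop in which the first base of the intron is joined to an adenosine near its end, the branch point. The enzyme Dbr1 normally opens this loop so that the RNA can be degraded, and without Dbr1 the loops persist. Ribosomal protein genes are among the most strongly transcribed genes of a growing yeast cell, and many exist as pairs of near-identical coding copies (paralogs). During splicing the start of an intron pairs with U1 small nuclear RNA and the bases around the branch point pair with U2.

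The ends of 12 introns are shown first, because the branch positions and the read counts below refer to them. Each line holds the last 30 bases of the intron in the NCBI ASM294v3 assembly, read 5′ to 3′ on the gene's strand. Capitals mark the 7 bases listed as the leading branch sequence, of which the sixth is the branch base, and the final AG. The first 5 lines are the introns with the most peak reads, the next 5 include those with many branch reads or an unusual distance, and the last 2 are cases in which branch and peak reads diverge.
rpp102 intron 1: cctaaaggggatTATTAACagtatttctAG
rpl31 intron 1: tttcagtccTACTAACtgtattttttatAG
rps13 intron 1: tgacaaaaactcaaTTCTAACtttgaatAG
rps2602 intron 1: aacgaaaacaatgAACTGACacatatttAG
rpp103 intron 1: ttctttcaaattAGCTAACaaaacttctAG
rps2402 intron 1: aattcaacatcAGCTAACggaaatttatAG
rpl3801 intron 1: ggaatgaccatcGACTAATgcatgttttAG
rps2801 intron 1: agcaagcaatgatTACTAACttctctgtAG
rps1801 intron 1: ttttcctctgatgtgaTATTAACattatAG
rps1201 intron 1: ttgcatatgattAACTAACatgtaatttAG
rpp203 intron 1: taatttgcttTACTAACcaatcatgtgtAG
rpl3602 intron 1: attttgtgaatgaaTACTAACaggttttAG

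Peak reads are raw counts of reads in the peak that the authors assigned to an intron, and they were not normalized. The 46 introns spanned 11 to 716954 peak reads, with a median of 3200.5 and quartiles of 67 and 39940.5, while the other 1246 introns had a median of 431 and quartiles of 52.3 and 2782. The 95% order-statistic interval of the median of the 46, which treats introns as independent draws, was 211 to 21256 and held the median of the others. With at least 50 peak reads the median of ribosomal protein introns was 15489, and the median of the others rose too. The difference of the medians of log10 peak reads, ribosomal protein minus other, was 1.12 with this minimum and 0.868 without it. Of the 46, 28 lay above the median of the whole table, which was 438 peak reads. That is 60.9%, against 50% of all introns by construction. The introns were thus found at both ends of the table. They filled all of the first 5 places, 8 of the first 10 and 14 of the first 50, and the 5 with most reads held 68.8% of the reads of the group, the first 10 held 93.2% and the first 20 held 99.3%. Fewer lariats of an intron and a lower recovery of it from the gel cannot be told apart in these counts.

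**Figure D1:**
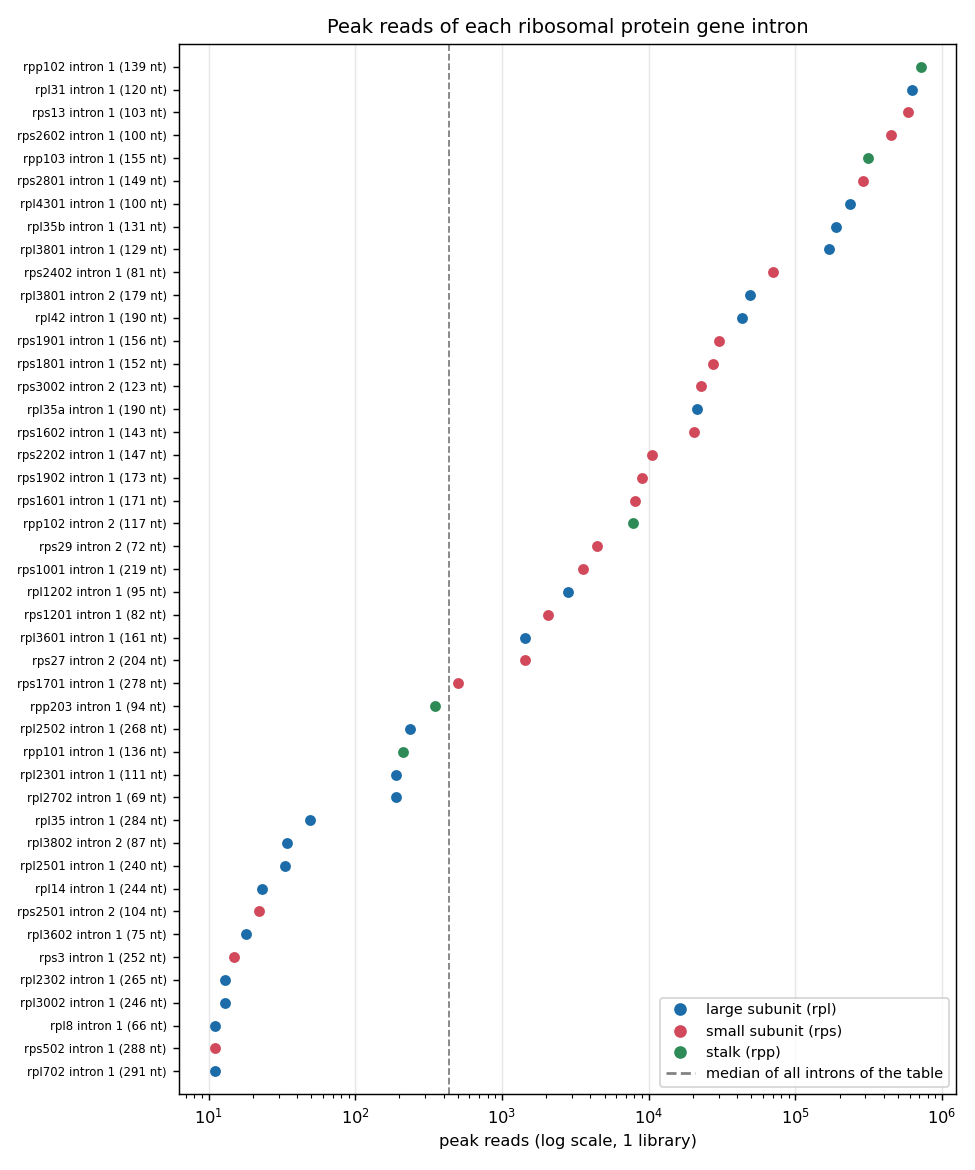
Peak reads (log axis, 1 library) of 45 of the 46 ribosomal protein gene introns, ordered from the most to the fewest, with the intron length in nucleotides beside the name. Points are coloured by subunit and the dashed line is the table median of 438; the points run from 11 to 716954 without a gap that separates the subunits.

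The stalk proteins P1 and P2 form the flexible arm of the large subunit that recruits translation factors. The introns of P1 genes spanned the highest count of the table and a count below its median. The first intron of rpp102 (139 nt, chromosome 2, 4009177 to 4009315, minus strand) had 716954 peak reads, the highest count of the table. The intron of rpp103 (155 nt, chromosome 3, 2408070 to 2408224, minus strand) had 314531, and that of rpp101 (136 nt, chromosome 1, 2700522 to 2700657, plus strand) had 211 (95% Poisson interval 183 to 241). All 3 interrupt the coding sequence after the same 69 coding bases, and they differ by at most 19 nt in length. The second intron of rpp102 (117 nt) had 7827 peak reads. Among the P2 genes, the intron of rpp203 (94 nt) had 347, and the introns of rpp201 (63 nt) and rpp202 (46 nt) were not listed.

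The 3 introns at the matching position of the P1 genes are printed whole, since introns at 1 site of 3 paralogs share little sequence. Capitals mark the first 6 bases, the leading branch sequence where branch reads were listed, and the final AG.
rpp102 intron 1: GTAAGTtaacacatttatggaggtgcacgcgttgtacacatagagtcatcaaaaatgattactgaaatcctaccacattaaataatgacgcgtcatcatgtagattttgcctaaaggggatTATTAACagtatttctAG
rpp103 intron 1: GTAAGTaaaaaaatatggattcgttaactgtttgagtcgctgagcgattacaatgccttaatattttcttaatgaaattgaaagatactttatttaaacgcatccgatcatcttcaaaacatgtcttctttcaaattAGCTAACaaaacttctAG
rpp101 intron 1: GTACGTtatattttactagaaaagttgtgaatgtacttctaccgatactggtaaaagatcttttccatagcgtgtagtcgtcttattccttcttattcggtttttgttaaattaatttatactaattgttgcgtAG
The introns of rpp102 and rpp103 start with the hexamer GTAAGT, and that of rpp101 starts with GTACGT. Both introns with many reads had branch reads, 336 for rpp102 and 229 for rpp103, and rpp101 had none. The end of the rpp101 intron holds CTAAT, a form of the branch motif, in its last 30 bases, so the letters were present where no branch read was listed.

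Large subunit introns ran from 11 to 626617 peak reads. The intron of rpl31 (120 nt), for eL31 beside the exit tunnel, had 626617 peak reads. That of rpl4301 (100 nt), for the zinc-binding protein eL43, had 237155. The intron of rpl35b (131 nt), 1 of 2 genes for eL33, had 187743. These are the highest counts among the 21. The gene rpl3801, for eL38, had both of its introns listed, with 170554 peak reads over intron 1 (129 nt) and 48891 over intron 2 (179 nt). The intron of rpl42 (190 nt), for eL42 near the exit site for tRNA, had 43141, rpl35a (190 nt) had 21256, and rpl1202 (95 nt), for uL11 at the stalk base, had 2822. At the other end, rpl8 (66 nt) and rpl702 (291 nt) had 11 peak reads each (95% Poisson interval 5.49 to 19.7), rpl2302 (265 nt) and rpl3002 (246 nt) had 13 each, and rpl3602 (75 nt) had 18. The other 8 had 23 to 1428 peak reads. Of the 21, 9 lay above the table median, and all 9 measured 80 to 200 nt, where 11 of the 21 lie. That is 42.9%, near the 50% of all introns.

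Small subunit introns lay above the table median in 16 of 20 cases, and stalk introns were above it in 3 of 5. That is 80% and 60%, against 50% of all introns. Among introns of 80 to 200 nt, 12 of 13 small, 9 of 11 large and 3 of 5 stalk introns lay above it. Of the other introns of this length, 60.1% did. The intron of rps13 (103 nt), for uS15, had 586655 peak reads. That of rps2602 (100 nt), for eS26 at the channel through which mRNA leaves, had 450739. The intron of rps2801 (149 nt), for eS28, had 289891. The next counts were several times lower. The intron of rps2402 (81 nt), for eS24, had 70772 peak reads, rps1901 (156 nt), for eS19, had 30339, rps1801 (152 nt), for uS13, had 27451, intron 2 of rps3002 (123 nt), for eS30, had 22857, and rps1602 (143 nt), for uS9, had 20455. Among the lowest were rps502 (288 nt) with 11, rps3 (252 nt) with 15, intron 2 of rps2501 (104 nt) with 22 and rps1701 (278 nt) with 503. The 104-nt intron of rps2501 was the only one of these 4 that was not longer than 200 nt. A further 7 small subunit introns had 1427 to 10522 peak reads.

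Median peak reads were 190 for large subunit introns, 8527 for small subunit introns and 7827 for stalk introns. The difference of the medians of log10 peak reads, large minus small, was -1.65, and it changed sign with the set of introns compared. Among introns of 80 to 200 nt, the median was 43141 in 11 large subunit introns and 22857 in 13 small subunit introns, a difference of 0.28 on the log10 scale. Among introns with at least 50 peak reads the difference was 0.46. That minimum removes the lowest of the counts compared, so this value cannot show which subunit had more. The large subunit set held 3 introns under 80 nt and 7 over 200 nt, while the small subunit set held 1 and 6. Among introns over 200 nt, the median was 23 in the 7 of the large subunit and 312 in the 6 of the small subunit.

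Divided by length, the order at the top changed. The intron of rps13 came first with 569568 peak reads per 100 nt, followed by rpl31 with 522181, rpp102 intron 1 with 515794 and rps2602 with 450739. Next came rpl4301 with 237155, rpp103 with 202923 and rps2801 with 194558, all in peak reads per 100 nt. On this scale the medians were 2746 for the 46 introns and 344 for the other introns. They were 171 for large subunit introns, 5678 for small subunit introns and 6690 for stalk introns. The order of these medians depended on the lengths included. Among introns of 80 to 200 nt it was large, small and stalk, at 22706, 18060 and 6690 peak reads per 100 nt and at 43141, 22857 and 7827 peak reads. The ranges of the 3 classes overlapped throughout.

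The 46 introns had a median length of 148 nt, against 117 nt for the other introns. Of the 46, 29 measured 80 to 200 nt, 13 were longer and 4 were shorter. Within each length band, ribosomal protein introns were compared with the others. Under 80 nt the medians were 103.5 peak reads in 4 ribosomal protein introns and 18 in 101 other introns. From 80 to 99 nt they were 2067 in 5 and 188 in 307. From 100 to under 150 nt they were 170554 in 15 ribosomal protein introns and 1268 in 449 other introns, the widest gap of the 5 bands. From 150 to 200 nt the medians were 27451 in 9 and 2298 in 242. Over 200 nt the medians of listed introns were close, at 33 in 13 ribosomal protein introns and 27 in 147 other introns. The upper quartiles there were 236 and 83, and 23.1% and 8.16% lay above the table median. Unlisted introns do not enter these medians, and over 200 nt 86.7% of annotated ribosomal protein introns were listed, against 44.1% of others. The medians therefore cannot show that the gap closed. Over all introns of 80 to 200 nt the medians were 22857 in 29 and 845.5 in 998.

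**Figure D2:**
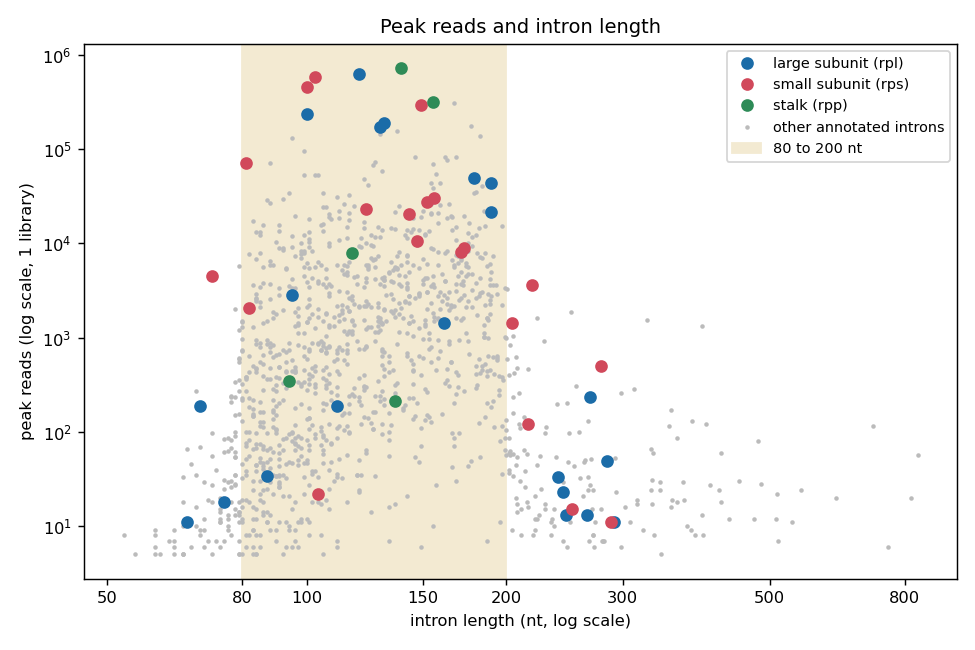
Peak reads (log axis) against intron length (nt, log axis) for the 46 ribosomal protein gene introns, coloured by subunit, and the 1246 other annotated introns, in grey. Shading marks 80 to 200 nt; the coloured points lie mostly in the upper part of the grey cloud inside the shading and far lower to its right, where their median was 33.

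Across the 46 introns the rank correlation of length and peak reads was -0.281, and Pearson's r of the log10 values was -0.274. Within the 29 introns of 80 to 200 nt the rank correlation was 0.14, and within the 13 over 200 nt it was -0.554. In the 1246 other introns it was 0.172. These values describe introns that share 1 library, and the sign depended on the length range.

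The reference annotation shows which introns of the class were not listed. It names 137 genes by the same rule, of which 74 have an intron, with 85 introns in all. Of these, 46 were listed (54.1%, exact 95% interval 43 to 65), against 23.5% of 5165 other annotated mRNA introns of up to 2000 nt. The median annotated ribosomal protein intron measured 82 nt, and the median other intron 55 nt. The listed share was 21 of 40 for the large subunit, 20 of 38 for the small subunit and 5 of 7 for the stalk.

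Listed and unlisted introns hardly overlapped in length below 200 nt. All 29 ribosomal protein introns of 80 to 200 nt were listed (exact 95% interval 88.1 to 100%), and 89.2% of 1088 other introns of this length were. Of 39 ribosomal protein introns of up to 71 nt, 2 were listed, those of rpl8 (66 nt) and rpl2702 (69 nt), and in other genes 0.904% of 3539 such introns were. Over 200 nt, 13 of 15 ribosomal protein introns were listed, or 86.7% (exact 95% interval 59.5 to 98.3), against 44.1% of 324 other introns. The 2 long ones that were missing belong to rpl102 (261 nt) and to rpl701 (441 nt), which the annotation names a subunit of RNase MRP, another RNA-processing enzyme, and L7-like. It is included in the 15 and in the 85 by its gene name. The listed long introns had few reads, so the higher share over 200 nt stood beside a median of 33 peak reads.

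**Figure D3:**
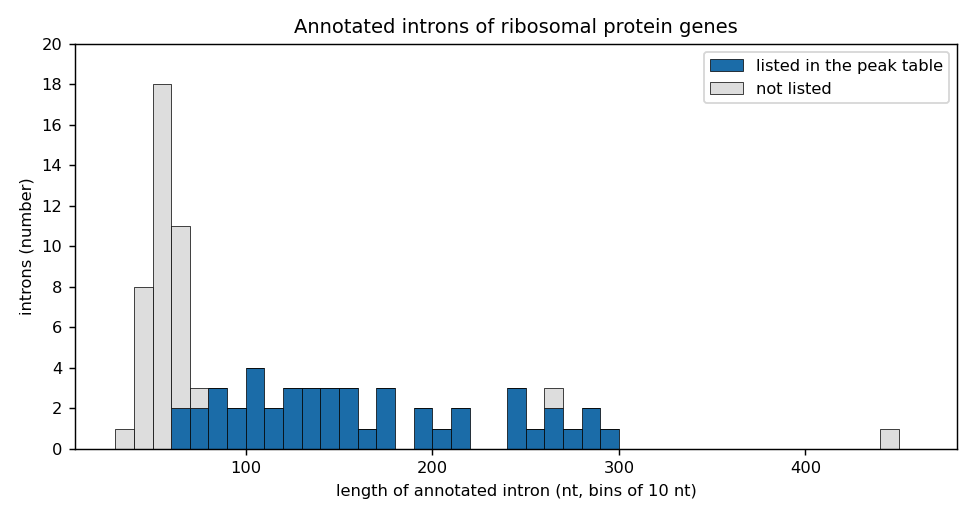
Number of annotated ribosomal protein gene introns (vertical axis) by length (horizontal axis, bins of 10 nt), with those listed in the peak table in blue and those not listed in grey, stacked. The grey introns are nearly all 71 nt or shorter, and the blue ones begin at 66 nt and end at 291 nt.

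Several genes had introns on both sides of this limit. The gene rps13, with 586655 peak reads over its first intron, has 2 further introns of 63 and 64 nt that were not listed. The neighbouring genes rps29 (uS14) and rps27 (eS27) on chromosome 2 each had intron 2 listed, with 4452 and 1427 peak reads, while their first introns of 51 and 38 nt were not. The same held for rps3002, rps2501 and rpl3802, whose first introns measure 49, 50 and 49 nt. Branch reads, 1 each, were listed for 3 introns without a peak count, those of rpl3703 (67 nt), rps2401 (69 nt) and rpl39 (62 nt).

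Paralogs carry introns at the same place in nearly the same coding sequence, so they let introns of different length be set side by side. There were 34 pairs of introns in paralogs, 31 of them at exactly the same coding position. Families with more than 2 genes give several pairs, so 1 intron can occur in more than 1 pair. Both introns were listed in 11 pairs, 1 of the 2 in 14 pairs and neither in 9 pairs. In 13 of the 14 pairs with 1 listed intron, that intron was the longer: the listed introns measured 69 to 278 nt and their unlisted partners 44 to 69 nt. The exception was the pair of rpl702, whose 291-nt intron was listed, and rpl701, whose 441-nt intron was not. The annotation calls rpl701 a subunit of RNase MRP that resembles ribosomal protein L7, and it was counted here by its name.

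The pairs with 1 listed intron included some of the highest counts. The rps2402 intron of 81 nt had 70772 peak reads and its rps2401 partner measures 69 nt. The rpl4301 intron of 100 nt had 237155 peak reads, and its rpl4302 partner measures 62 nt. The rps2801 intron of 149 nt had 289891, beside a 50-nt partner in rps2802, and intron 1 of rpl3801 (129 nt) had 170554, beside a 49-nt partner in rpl3802. Other long introns with an unlisted partner had far fewer: the 219-nt intron of rps1001 (eS10) had 3579 peak reads and the 278-nt intron of rps1701 (eS17) had 503, with unlisted partners of 48 and 64 nt.

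Where both introns were listed, the intron with more reads had 2.28 to 3398 times the reads of its partner, with a median ratio of 11. The 11 pairs came from 9 families, and 3 of them paired the same introns of rpp101, rpp102 and rpp103. Those pairs gave both the lowest and the highest ratio, so the 11 are not independent. The smallest ratios were those of rpp102 over rpp103 (2.28), of rps1602 over rps1601 for uS9 (20455 and 8104 peak reads, 2.52) and of rps1901 over rps1902 for eS19 (30339 and 8950, 3.39). For uL23, a protein at the exit of the tunnel, rpl2502 had 236 peak reads and rpl2501 had 33, a ratio of 7.15. For eL33, rpl35b had 187743 and rpl35a had 21256, a ratio of 8.83.

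A further 5 pairs had wider ratios. For the proteins named L23 in the annotation, rpl2301 (111 nt) had 190 peak reads and rpl2302 (265 nt) had 13, a ratio of 14.6. For L36, rpl3601 (161 nt) had 1428 and rpl3602 (75 nt) had 18, a ratio of 79.3. Intron 2 of rpl3801 (179 nt) had 48891 and intron 2 of rpl3802 (87 nt) had 34, a ratio of 1438. The intron of rpp101 gave the widest ratios, 1491 below rpp103 and 3398 below rpp102. Per nucleotide these 5 ratios were 34.9, 37.0, 699, 1308 and 3325. The intron with more reads was the shorter one in 6 of the 11 pairs. The longest stretch shared by 2 introns of such a pair was 6 to 9 nt, and every 25-base stretch of all 46 introns occurred only once in the genome.

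**Figure D4:**
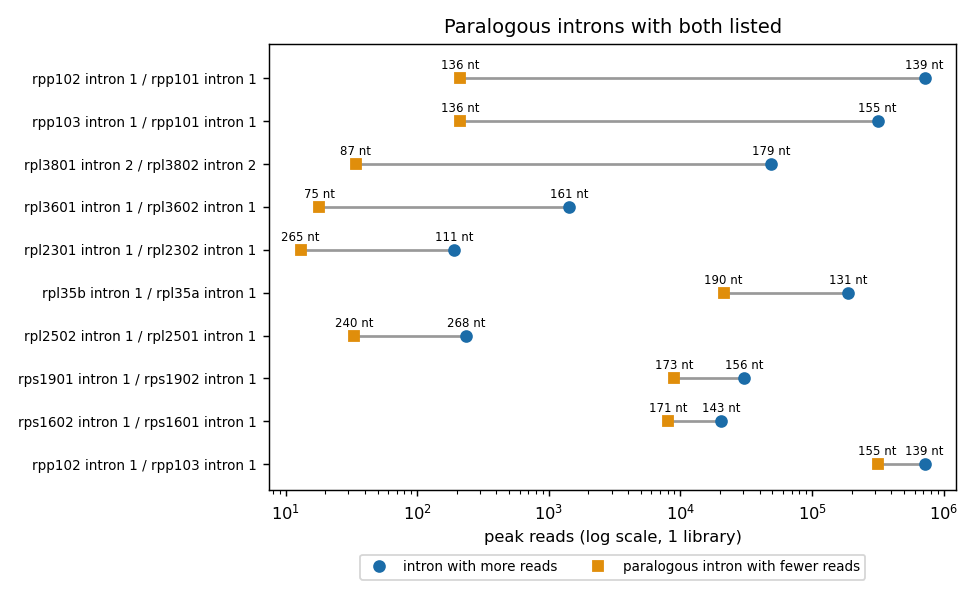
Peak reads (log axis, 1 library) of paralogous introns in 10 of the 11 pairs in which both were listed, with circles for the intron with more reads, squares for its partner and lengths in nt above the symbols. Pairs run from the widest ratio, 3398 for rpp102 over rpp101, at the top to the narrowest, 2.28 for rpp102 over rpp103, at the bottom.

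Among the 44 genes, 3 have a paralog without an intron: rpl1202, rps2202 and rps2602. Their introns had 2822, 10522 and 450739 peak reads. The rps2202 intron (147 nt) was the only 1 of the 46 in a 5′ untranslated region. The other 45 interrupt the coding sequence. A further 9 genes have no paralog by name, among them rpl31, rps13 and rpl42.

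The starts of these introns were more uniform than those of other introns. GTAAGT began 27 of 46, or 58.7% (exact 95% interval 43.2 to 73.0), against 36.6% of the other 1246 (33.9 to 39.3), and the intervals did not overlap. GTATGT began another 14, or 30.4%, against 24.2%. All other hexamers together made up 10.9%, against 39.2%. Among annotated introns that were not listed, GTAAGT began 43.6% of 39 ribosomal protein introns (27.8 to 60.4) and 24.3% of 3953 others. Inside the 80 to 200 nt range, median peak reads were 170554 for 15 ribosomal protein introns with GTAAGT, 19222 for 10 with GTATGT and 9736 for 4 with another start, with overlapping ranges. Over all lengths this order did not hold, with medians of 2067 for 27 introns, 2504 for 14 and 8950 for 5. In the other introns of 80 to 200 nt the medians lay close together. They were 884 for 357 with GTAAGT, 737 for 241 with GTATGT and 868.5 for 400 with another start.

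The ends were also more uniform. TAG closed 41 of 46 introns, or 89.1% (76.4 to 96.4), against 71.7% of the others (69.1 to 74.2). The last 30 bases were searched, on the gene's strand only, for the branch motif CTAAC and its variants with a T at the end (CTAAT) or a G in place of the first A (CTGAC). A match to 1 of these 3 motifs was found in 43 of 46 introns, or 93.5%, against 79.1% of the others. CTAAC alone was present in 67.4% of the ribosomal protein introns and in 55.6% of the others. The 3 without a match were rpp102 intron 1, rps1801 and rps29 intron 2, and in all 3 the leading branch sequence was TATTAAC. The median GC content was 30.3%, against 30.2% in the others.

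Position in the gene was varied. The coding sequence before the intron was 1 to 100 bases long in 18 introns and longer in 27. Of introns of 80 to 200 nt, the 10 early ones had a median of 50556 peak reads and the 18 later ones a median of 20856, with overlapping ranges. Directly after the start codon lay 3 introns, those of rpl3801 intron 1, rps1701 and rpl8. None of the 46 held an annotated small nucleolar RNA.

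Branch reads, which cross the join between the first base and the branch point, were listed for 28 of the 46 introns. That is 60.9%, against 58.4% of the other introns of the peak table, but the shares differed by length. From 80 to 200 nt it was 25 of 29, or 86.2%, against 67.7% of 998 other introns. Over 200 nt it was 7.69% of 13 against 8.84% of 147, and under 80 nt 50% of 4 against 38.6% of 101. The 28 comprised 10 of 21 large subunit introns with 2038 branch reads, 14 of 20 small subunit introns with 3300 and 4 of 5 stalk introns with 711. Together these are 6049 of the 21802 branch reads of the table. The 18 introns without branch reads had 11 to 3579 peak reads, and 12 of them were longer than 200 nt. Of the 13 introns over 200 nt, only that of rpl2501 had any.

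The order by branch reads was not that by peak reads. The intron of rps2402 (81 nt) led with 1822 branch reads, then rpl31 with 1302 and rps13 with 849. Intron 1 of rpl3801 had 483, rps1201 (82 nt, for eS12) had 371 and rpp102 intron 1 had 336. After rpp103 with 229 came rpp203 with 145, rpl35a with 131 and rps29 intron 2 with 92. The intron of rps2602, with 450739 peak reads, had only 9 branch reads.

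The branch sequence was the canonical form of fission yeast in most introns. The leading sequence ended in CTAAC in 19 of 28 introns, or 67.9% (exact 95% interval 47.6 to 84.1), against 53.3% of 786 other introns of the branch table (49.7 to 56.8). The full heptamer TACTAAC led in 9 of 28, or 32.1% (15.9 to 52.4), against 16.0% (13.5 to 18.8). In both comparisons the intervals overlapped. CTAAT ended the leading sequence in 4 introns and TTAAC in 3. The remaining 2 were rps2602, with AACTGAC, and rpl2501, with CTTAAAT.

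In 4 of the 11 paralog pairs with both introns listed, both also had branch reads, and no pair shared its leading heptamer. The rpp102 intron used TATTAAC and rpp103 used AGCTAAC, both 11 nt from the end. For eS19, rps1901 used TACTAAT at 11 nt (8 branch reads) and rps1902 used TTCTAAC at 10 nt (3 reads). For uS9, rps1602 used TACTAAC at 9 nt (1 read) and rps1601 used TACTAAT at 12 nt (8 reads). For eL33 the 2 read counts ranked the introns differently: rpl35b, with 8.83 times the peak reads, had 50 branch reads led by TACTAAT at 10 nt, and rpl35a had 131 led by TGCTAAC at 12 nt. The L36 pair also differed, since rpl3601 had 1428 peak reads and no branch read, and rpl3602 had 18 peak reads and 22 branch reads.

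The distance from the end of the heptamer to the end of the intron was short and even. Its median was 11 nt in the 28 introns (quartiles 10 and 12), against 10 nt in the others (9 and 13). In 27 of 28 it lay between 7 and 14 nt, with the shortest in rps1801. The exception was rpl2501, where 2 branch reads lay 101 nt from the end. The last 30 bases of that intron hold CTAAC closer to the end, in capitals below, with no branch read there.
rpl2501 intron 1: aagaatatttgCTAACttatatctttatAG

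Branch positions were nearly single. Of the 6049 branch reads, 98.7% fell at the leading position of their intron (95% Wilson interval 98.4 to 99), against 97.7% in other introns. Of 16 introns with at least 20 branch reads, 6 had 1 position only. A further position was listed in 10 introns, with 14 positions and 79 reads in all. Exactly 1 nt upstream of the leading position lay 10 of these 14 positions, with 73 of the 79 reads, and in other introns this held for 110 of 180. The highest such counts were 26 reads in rps2402, 18 in rps13 and 12 in rpl31. The remaining 4 positions had 1 to 3 reads each. In rps13 they were 3 single reads, the nearest at AACTCAA, and in rps1201 they were 3 reads at GATTAAC.

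Branch reads per 1000 peak reads had a median of 0.985 in the 28 ribosomal protein introns and 4.82 in 728 other introns with both counts. With introns that had no branch reads counted as 0, the median of the 46 was 0.122. This is not to be set against 4.82, which leaves out other introns without branch reads. From 100 to under 150 nt the medians were 0.38 in 13 ribosomal protein introns and 3.18 in the others, and from 150 to 200 nt they were 0.532 in 8 and 1.13. In the other 3 bands the order of the medians was turned round, on few introns. From 80 to 99 nt the medians were 103 in 4 ribosomal protein introns and 13.5 in the others, under 80 nt 621 in 2 and 58.8, and over 200 nt 60.6 in 1 and 18.2. With the reads of these introns pooled, the order was not turned round under 80 nt, at 25.5 and 28.1. Pooled values were 31.0 and 7.21 from 80 to 99 nt, and 60.6 and 5.40 over 200 nt. The extremes were rps2602 with 0.02 and rpl3602, where 22 branch reads stood beside 18 peak reads, giving 1222. The intron of rpp203 gave 418, rps1201 gave 179 and rps2402 gave 25.7. Median peak reads were higher in ribosomal protein introns in both directions of the ratio, at 170554 against 1268 from 100 to under 150 nt and at 2067 against 188 from 80 to 99 nt, over all listed introns. Their part in the ratio was not tested.

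**Figure D5:**
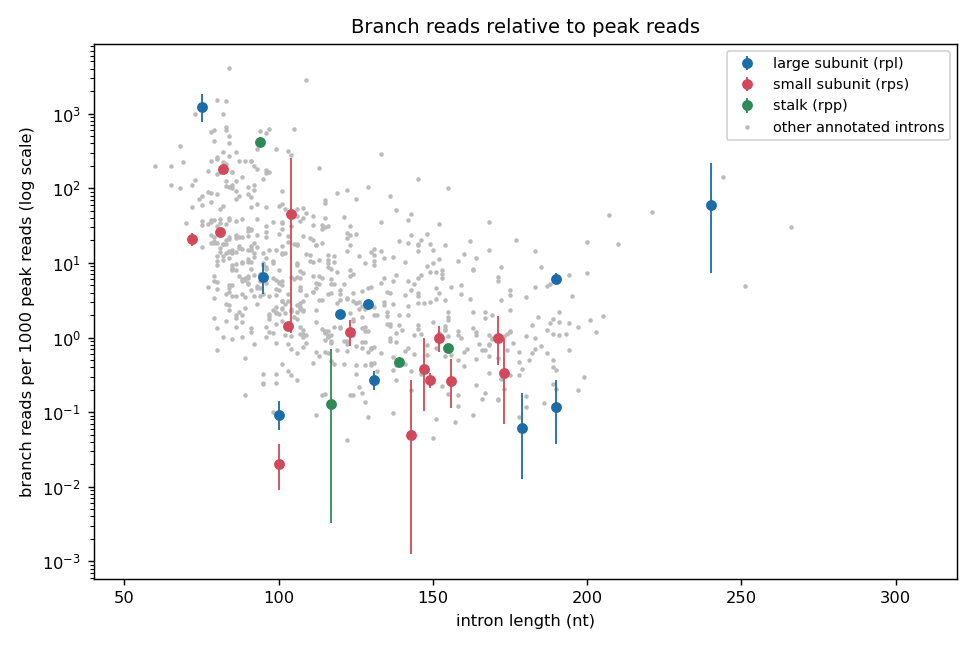
Branch reads per 1000 peak reads (log axis) against intron length (nt) for the 28 ribosomal protein gene introns with branch reads, coloured by subunit, and other introns of up to 320 nt, in grey. Bars are 95% Poisson intervals of the branch reads; coloured points run from 1222 at 75 nt to 0.02 at 100 nt.

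Across the 28 introns the rank correlation of branch reads and peak reads was 0.47, and it was 0.445 over the 728 others. The rank correlation of length and branch reads per 1000 peak reads was -0.407 and, in the others, -0.505. Both are descriptions over introns of 1 library, and the ratio has the peak reads in its denominator.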

How the data were processed

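The deposited values are, per the file headers, raw counts of reads per intron peak and, for branch points, a 7-base sequence, its distance to the intron end and its read count. Bowtie 0.12.3 and SAMtools are named in the submitters' processing notes. The method of peak calling, build and gene models, not given in the sources used here, could change which introns are listed. The lowest listed count was 5. Of 1314 lines, 22 repeated another and were dropped, 1 of them a ribosomal protein intron.

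All 46 introns equalled an intron of the NCBI ASM294v3 annotation, which gave sequence, gene structure and positions (1-based). Paralogs share the protein number in their names, and their introns were paired where the coding bases before them differed by at most 30. Branch rows were joined by systematic identifier and intron number. A row was used for a listed intron only where its leading sequence lay at the stated distance in the assembly. Listed introns without such a row were counted as having no branch reads. Medians, quartiles, exact binomial, Wilson or Poisson 95% intervals and correlations were computed with Python 3.11.15, numpy 2.4.6 and scipy 1.17.1, after checking the functions on simulated data. Intervals of read counts and read shares cover counting error only, and PCR copies are not independent molecules. Intervals of shares of introns treat introns as independent draws. Sums over listed peaks are not library depths.

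The members and gene lists were chosen with earlier results of these data known. Introns were named by a rule: all stalk introns, the 8 highest and 5 lowest of each subunit, pairs with both listed, and those with most, several or unusual branch positions. The values of 1 intron that the rule takes in are not reported here, although it stays in the counts and medians. Others were named after their values were seen, for their length, position or annotation. Alternatives changed the read minimum, length range, unit, introns per gene and branch positions.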

Additional observations from a re-analysis of the deposited data

How the results depend on the processing

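Of 31 alternatives over 11 values, 22 left the value within its interval and in the same direction. Restricting to 80 to 200 nt moved the median of ribosomal protein introns to 22857 peak reads, their share of all peak reads to 42.3% from 42.2% over all lengths, and the listed share of annotated introns to 100%. Without the intron with most reads the share of all peak reads was 37.3%. Counting all branch positions gave CTAAC in 45.2%. Of the 14 positions this adds, 10 lie exactly 1 nt upstream of the leading position, where the sequence ends in TAA and cannot end in CTAAC. Part of that fall therefore follows from the way of counting. Counting introns without branch reads as 0 gave a median of 0.122 branch reads per 1000 peak reads in ribosomal protein introns, with no matching value for the others. The large minus small subunit difference, -1.65 on the log10 scale, reversed to 0.46 with at least 50 peak reads and to 0.28 from 80 to 200 nt, and the rank correlation of length and peak reads reversed to 0.14 from 80 to 200 nt. The length restriction itself removes the short and long introns, and the read minimum removes the lowest of the counts compared. Beyond that the cause was not tested. No paired analysis was possible because all values come from 1 library. Introns with under 50 peak reads or under 20 branch reads are limited by counting error.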

Other observations

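Further genes were matched by the start of their names alone, so each list leaves out genes of its class and can hold others: img2 and rsm24, of the mitochondrial ribosome, are not in the first list, tif6, a ribosome assembly factor, is in the second, and mak1, a histidine kinase, is in the third. Genes named mrp, mrpl or mrps, for the ribosome inside mitochondria, had 8 listed introns of 7 genes with a median of 58 peak reads (6 to 5494), led by intron 2 of mrpl17, and 3 lay above the table median. Genes with names of translation factors (sui1, sup35, tef5 and tif) had 9 introns of 8 genes with a median of 200 (7 to 14630), led by intron 2 of tif45 with 14630, and 4 lay above the table median. Genes with names of ribosome biogenesis factors (gar1, mak1, nog1, nop, rrp and utp) had 12 introns of 10 genes with a median of 366.5 (8 to 16854), led by intron 1 of nop16, and 6 lay above it. Of all introns of the table, 50% lie above its median. From 80 to 200 nt the medians were 502.5 in 6 introns of the first list, 3239.5 in 6 of the second and 495 in 9 of the third. The median of all 998 introns of this length outside the ribosomal protein set was 845.5.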
